A study of Bos grunniens and Bos grunniens x Bos taurus with 2 samples.

Results

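The cells described here are 513 of the 8930 cells in the testis library of 1 cattle-yak, or 5.75% (exact binomial 95% interval 5.27 to 6.25%), and were set out as its Sertoli cells (SCs). They were chosen by measured values. A cell had to hold at least 4 UMIs (unique molecular identifiers, each standing for 1 captured mRNA molecule) of *INHA*, *AARD* and *SOX9* together, no UMI of *CYP11A1*, a gene of steroid-making cells, and fewer than 5 UMIs of *WFDC2*. No limit was set on the mitochondrial share of a cell. The whole series holds 20921 cells, from this library and from 1 library of a yak.

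The cattle-yak is the cross of *Bos grunniens* and *Bos taurus*, and both animals were sampled after sexual maturity. Testis tissue was cut up and digested with enzymes, and the cells were captured in droplets on the 10x Genomics platform and sequenced. The labels call the material germ cells, but no sort or gate is named and somatic cells of many kinds are present. The cattle-yak library has 43774841 UMIs with a median of 3155 per cell, and the yak library has 60816600 UMIs with a median of 2533. With 1 library per animal there is no replicate check, no test was run, and any difference between the libraries compares those libraries and not the crosses. Intervals are at 95% and cover counting error only. The libraries share 24 cell barcodes, 3 of which belong to the 513 cells.

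SCs are the somatic cells of the seminiferous epithelium. They surround the germ cells, close the tubule with tight junctions, feed germ cells with lactate, iron and retinoids, engulf residual bodies, and answer to follicle-stimulating hormone. Male cattle-yaks are known to be sterile, with few germ cells past the spermatogonial stages, so SCs are among the remaining cells of the tubule.

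The 513 cells did not form a single kind of cell. *INHA* encodes the alpha subunit of inhibin, the hormone by which SCs restrain the pituitary, *AARD* encodes an alanine- and arginine-rich protein known from SCs, and *SOX9* encodes the transcription factor that sets SC fate. A total of 366 cells held at least 4 UMIs of *INHA* and *AARD* together and would have been chosen without *SOX9*. Another 115 cells held no UMI of *INHA* or *AARD* and passed on *SOX9* alone, and the remaining 32 cells held 1 to 3 UMIs of the pair. The 366 cells are called *INHA*/*AARD* cells below and the 115 cells *SOX9*-only cells. This division was made after the values had been seen.

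**Figure D1:**
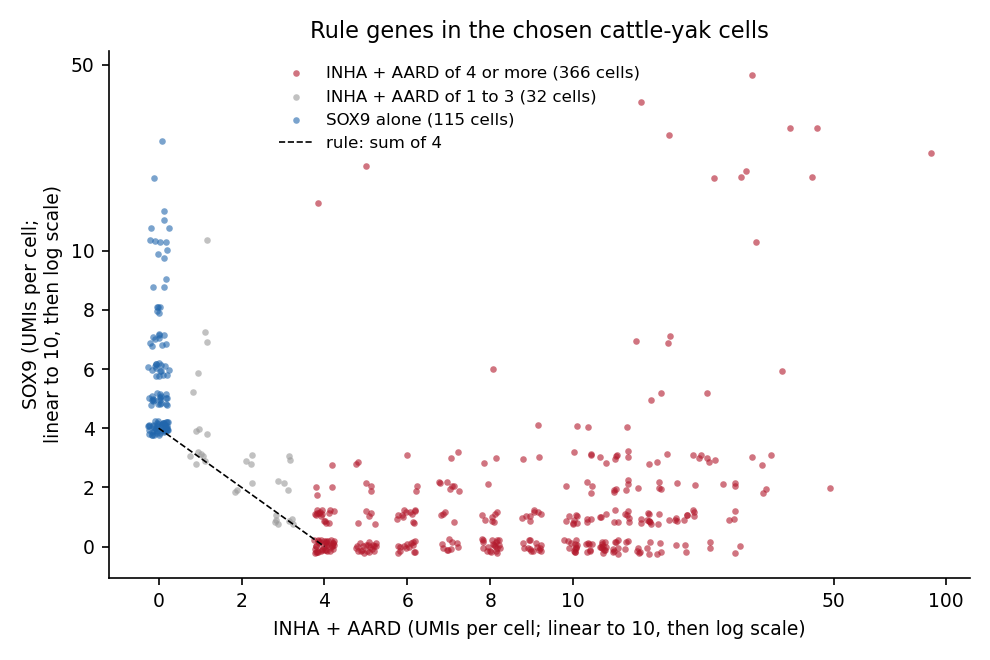
UMIs per cell of *INHA* plus *AARD* (x axis) and of *SOX9* (y axis) in the 513 chosen cells, each point 1 cell with a small random shift, on axes that are linear to 10 and logarithmic above. The 115 *SOX9*-only cells stand in a column at 0, and the 366 *INHA*/*AARD* cells spread to the right, many of them with no UMI of *SOX9*.

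Among the *INHA*/*AARD* cells, 98.1% held a UMI of *INHA* with a median of 5, 93.7% held one of *AARD* with a median of 4, and 52.7% held one of *SOX9* with a median of 1. *SOX9* reached a median of 5 UMIs and a maximum of 26 in the *SOX9*-only cells. All 3 genes were seen together in 191 of the 513 cells. The limit was not a gap in the data. Just inside it, at a sum of 4, lay 100 cells, of which 53 held *INHA* or *AARD* and 37 fell in the SC-like cluster described next, with a median mitochondrial share of 20.6%. Just outside, at a sum of 3, lay 150 cells, of which 71 held *INHA* or *AARD* and 37 fell in that cluster, with a median mitochondrial share of 18.8%.

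The label was checked by clustering all cells of the library without the 5 genes of the rule. Of 27 clusters, 1 met the rule for an SC-like name, with 6 enriched markers, *SOX9*, *INHA*, *AARD*, *GATA4*, *CITED1* and *TF*. *SOX9*, *INHA* and *AARD* are genes of the rule, by which 358 of the 520 cells of this cluster were chosen. Their place among the markers is therefore not independent of the choice. *GATA4*, *CITED1* and *TF* are not genes of the rule. An unnamed cluster of 63 cells, led by *WFDC2* with *PAX8* also among its leading genes, had 5 enriched SC markers, *SOX9*, *WT1*, *GATA4*, *SHBG* and *TF*, and an unnamed cluster of 32 cells with *STAR*, a gene of steroid-making cells, among its leading genes had 4, *INHA*, *CITED1*, *SHBG* and *TF*. The SC-like cluster held 520 cells, among them 346 of the 366 *INHA*/*AARD* cells, 11 of the 32 cells between, and 1 of the 115 *SOX9*-only cells. Of the *SOX9*-only cells, 78 fell in the 4 stromal-like clusters, 17 in other named clusters and 19 in unnamed ones. In 1 of those stromal-like clusters, which held 50 of the *SOX9*-only cells, *SOX9* was among the 10 leading genes. Another 162 cells of the SC-like cluster were not chosen, 148 of them because their sum was below 4, so the cells used for comparison still contain some cells of the same cluster. The markers that the rule did not use were thus also enriched where most *INHA*/*AARD* cells lay, and the label SC was not met in the *SOX9*-only cells. The 20 *INHA*/*AARD* cells outside the SC-like cluster held 304584 of the 2500912 UMIs of the 366 cells (12.2%), so printed values that move by over 1.5 times without them are also given for the 346 cells within it where they bear on a result, a choice made after the values had been seen.

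Stromal genes separated both groups. *DCN*, the matrix proteoglycan decorin, had a UMI in 77.9% of *SOX9*-only cells, in 85.0% of stromal-like cells, in 7.84% of *INHA*/*AARD* cells and in 7.61% of T/NK-like cells, all after thinning each cell to 1000 UMIs. The share in *INHA*/*AARD* cells was thus near that of lymphocytes, which should lack the gene. Without thinning, the shares of *DCN* were 87.8, 88.8, 14.5 and 9.86%, at median depths of 3604, 2477, 5930 and 2300 UMIs. Thinning left out 2 *SOX9*-only, 729 stromal-like, 47 *INHA*/*AARD* and 307 T/NK-like cells that were shallower. *PDGFRA*, a growth factor receptor of fibroblasts, had a UMI in 40.7, 41.8, 2.82 and 3.16% of the same groups after thinning. The summed level of the 7 stromal markers was 8033 CPM (counts scaled to a common total over genes that are neither mitochondrial nor ribosomal RNA) in *SOX9*-only cells, 748 CPM in *INHA*/*AARD* cells, 3497 CPM in all cells that were not chosen and 13084 CPM in stromal-like cells, with *MGP* the most counted of them in both chosen groups. *MGP*, a matrix protein that restrains calcification, was at 3025 CPM (2864 to 3192) in *SOX9*-only cells and 240 CPM (212 to 272) in *INHA*/*AARD* cells. Values for all 513 cells therefore average unlike cells, and each result below is given for the *INHA*/*AARD* cells with that of all 513 cells for some.

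Markers of most other cell types were low in the *INHA*/*AARD* cells. The 7 T/NK markers summed to 52.0 CPM against 3119 CPM in T/NK-like cells, with 25 UMIs of *TRDC* as the largest entry and *CD247* and *PRF1* at 0. The 8 macrophage markers summed to 29.7 CPM against 7833 CPM in macrophage-like cells, with *C1QA* at 8 UMIs and *CD163* at 0. The 9 endothelial markers summed to 288 CPM against 3818 CPM in EC-like cells, with *PECAM1* the most counted and *PLVAP* at 0. The 7 myoid markers summed to 1452 CPM against 41930 CPM in MC-like cells, with *TAGLN*, at 564 UMIs, the largest entry. The 11 germ cell markers reached 650 CPM against 967 CPM in the cells not chosen, mostly as *UCHL1*, with *ACRV1* and *TNP1* at 0. Of the 379 UMIs of *UCHL1*, a ubiquitin hydrolase that also marks spermatogonia, 334 lay in the 20 cells outside the SC-like cluster, and the 346 cells within it had 52.1 CPM. The epithelial list was higher, at 1555 CPM against 412 CPM in the cells not chosen. Of its 1676 UMIs 1499 were *CRYAB*, and *CDH1*, *CLDN4*, *CLDN7* and *ELF3* were at 0. *CRYAB* is also an SC marker of the study, which reported its protein in SCs of yak testis by immunohistochemistry. Of the remaining lists, the Leydig markers summed to 62.2 CPM, nearly all *DLK1*, with *CYP11A1* at 0 through the rule, the lymphatic markers to 264 CPM, mostly *CCL21*, and the pericyte markers to 197 CPM, with *CSPG4* at 0. The B cell and mast cell lists were at 4.64 and 1.86 CPM, and *ALAS2* of the erythroid list was at 0. Within the 346 cells of the SC-like cluster the sums were lower for the germ cell (138 CPM), endothelial (63.7 CPM), lymphatic (77.6 CPM), pericyte (93.8 CPM), macrophage (13.9 CPM) and Leydig markers (4.63 CPM), whereas the myoid and stromal markers stayed at 1420 and 770 CPM. Scrublet called 41 of the 513 cells as doublets, 34 of them *INHA*/*AARD* cells and 7 *SOX9*-only cells, and none was removed. The share was 9.29% (6.52 to 12.7%) of *INHA*/*AARD* cells, 8.38% of those in the SC-like cluster and 5 of the 20 outside it, against 2.81% (2.48 to 3.18%) of all cells of the library, and its part in the results was not tested beyond leaving these cells out.

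Several of the leading genes of the *INHA*/*AARD* cells are listed as extracellular protease inhibitors or under defence. Some have no symbol in the yak annotation and are given by identifier, with the annotation that the study lists for them. ENSBGRG00000007655, listed as an extracellular inhibitor of cysteine proteases, had 20683 UMIs and was found in 365 of the 366 cells. Its level was 19193 CPM (18932 to 19456), against 128 CPM (96.4 to 166) in *SOX9*-only cells, 474 CPM (454 to 495) in stromal-like cells, which was the highest of the 8 other named classes, and 304 CPM in all cells not chosen. The log2 ratio to the cells not chosen, with 1 CPM added to each side, was 5.97, and 5.31 for all 513 cells. After thinning, the gene had a UMI in 98.4% of *INHA*/*AARD* cells, 17.7% of *SOX9*-only cells and 31.6% of stromal-like cells. T/NK-like cells had one in 13.9%, which is taken as background.

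The other inhibitors of this kind behaved alike. ENSBGRG00000007806 was at 8970 CPM (8792 to 9150) in *INHA*/*AARD* cells and 123 CPM in the cells not chosen, and ENSBGRG00000007612 at 3993 CPM (3875 to 4114) and 71.2 CPM. Genes listed under the defence response to bacteria were high as well. *DEFB123*, a beta-defensin, stood at 1475 CPM (1404 to 1550) against 21.8 CPM, and only 1 UMI of it was counted in the *SOX9*-only cells. ENSBGRG00000015536 stood at 4734 CPM against 71.3 CPM and ENSBGRG00000015690 at 736 CPM against 12.2 CPM. ENSBGRG00000023506, listed under negative regulation of apoptosis, had the largest log2 ratio outside the rule, 6.48, from 5344 CPM (5207 to 5484) against 58.8 CPM. For each of these 7 genes the named class with the next highest level stood at 474 CPM or less.

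Other genes among the 20 with the largest ratio were of several kinds. *MAGEA10*, a cancer-testis antigen gene, was at 437 CPM (399 to 478) in *INHA*/*AARD* cells and 6.84 CPM in the cells not chosen. *OXT*, which encodes the oxytocin precursor, had 314 UMIs and 291 CPM (260 to 326), with a UMI in 27.0% of thinned *INHA*/*AARD* cells, 0.630% of stromal-like and 0.198% of T/NK-like cells. No UMI of *OXT* was found in *SOX9*-only cells, so the *INHA*/*AARD* cells were at least 42.6-fold higher than the level of 3 counts over that group, 6.84 CPM. *PCSK1N*, an inhibitor of a prohormone convertase that is among the 20 largest for all 513 cells only, was at 280 CPM against 6.69 CPM in the cells not chosen. Both genes were also counted in 38 cells of this library with at least 5 UMIs of *WFDC2*, called *WFDC2*-rich cells below, where *OXT* stood at 99.2 CPM from 24 UMIs and *PCSK1N* at 145 CPM from 35 UMIs. Against the cells not chosen, *SNCB*, beta-synuclein, was at 304 CPM against 5.94 CPM. *VSIG1*, an adhesion protein of the immunoglobulin family, was at 140 CPM against 2.02 CPM, and *ARHGAP36* at 205 CPM against 3.70 CPM. *PLAC1* and *F10*, the gene of coagulation factor X, entered the 20 largest for the *INHA*/*AARD* cells at 95.6 and 127 CPM. The 20 largest for all 513 cells and for the *INHA*/*AARD* cells had 17 genes in common. Among genes chosen after their values were seen, *TNNI3*, a troponin subunit, was at 1606 CPM against 54.7 CPM, *AQP8*, a water channel, at 358 CPM against 10.1 CPM, and ENSBGRG00000008193, listed as a prostaglandin D synthase, at 8106 CPM against 1643 CPM, with 4154 CPM in stromal-like cells.

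**Figure D2:**
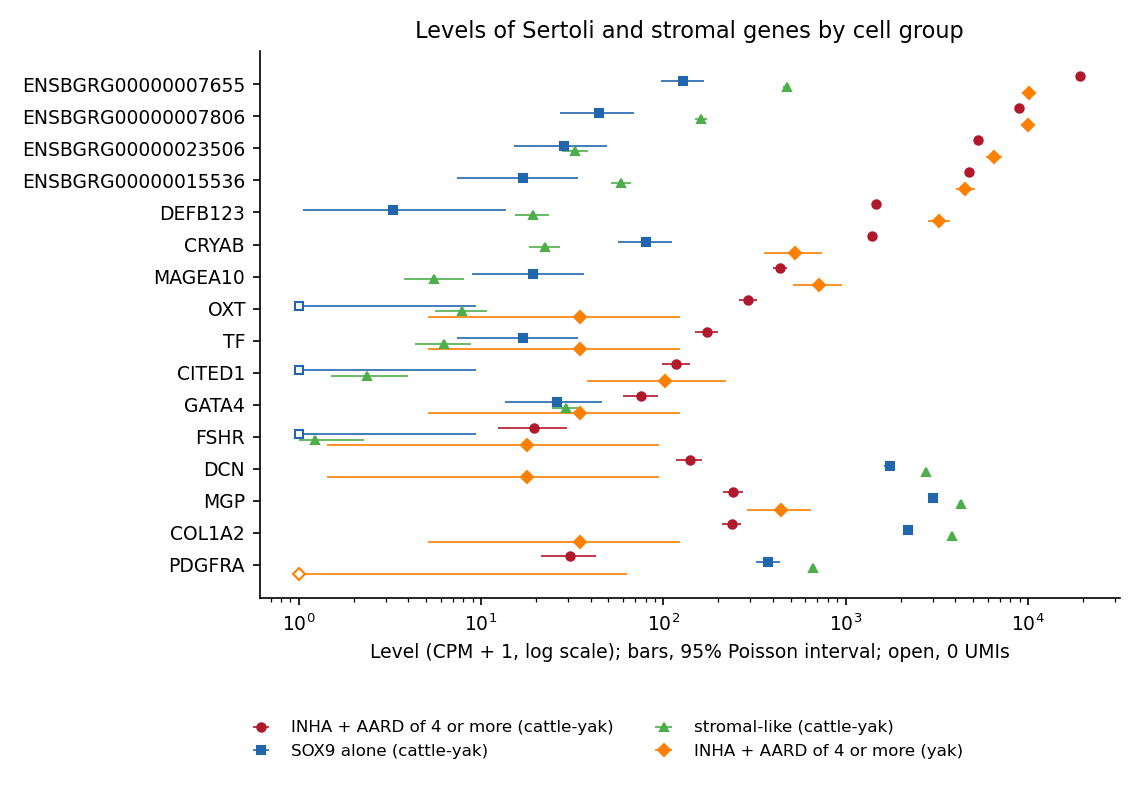
Level (CPM + 1, log axis) of 12 genes that lead or mark SCs and of 4 stromal genes in the *INHA*/*AARD* cells, *SOX9*-only cells and stromal-like cells of the cattle-yak and in the 23 *INHA*/*AARD* cells of the yak, with exact Poisson 95% intervals and open symbols for 0 UMIs. In the yak *OXT*, *TF*, *GATA4* and *FSHR* rest on 1 or 2 UMIs with wide intervals, and *DCN*, *MGP*, *COL1A2* and *PDGFRA* are high in *SOX9*-only and stromal-like cells.

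The genes lowest in the *INHA*/*AARD* cells belonged to blood and vessel cells. *CXCL9*, an interferon-induced chemokine, was at 3.71 CPM against 131 CPM in the cells not chosen, *CD3D*, a subunit of the T cell receptor complex, at 1.86 CPM against 33.4 CPM, and *TM4SF18* at 6.50 CPM against 122 CPM. In the 346 cells of the SC-like cluster *TM4SF18* was at 1.16 CPM from 1 UMI and *CD3D* at 0. For all 513 cells the lowest also included *CCL5* at 24.1 CPM against 292 CPM, *IL7R* at 8.03 CPM against 61.8 CPM and *ESM1* at 12.0 CPM against 91.1 CPM. *WFDC2*, at 12.0 CPM against 108 CPM, was among them through the rule.

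Across all genes with a mean of at least 10 CPM, 789 of 8320 were at least 2-fold higher on this scale in the 513 cells than in the cells not chosen (9.48%), and 673 were at least 2-fold lower (8.09%). For the *INHA*/*AARD* cells, 1209 of 8164 genes were higher (14.8%) and 1675 were lower (20.5%). Within the 346 cells of the SC-like cluster, 1431 of 8052 were higher (17.8%) and 2454 lower (30.5%). These counts describe 1 library and are the background for the gene lists that follow. Several list counts differ for all 513 cells, where none of 10 retinoid genes, none of 5 immune privilege genes and 1 of 11 genes of lipid handling were lower and none of 9 genes of glucose use was higher.

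**Figure D3:**
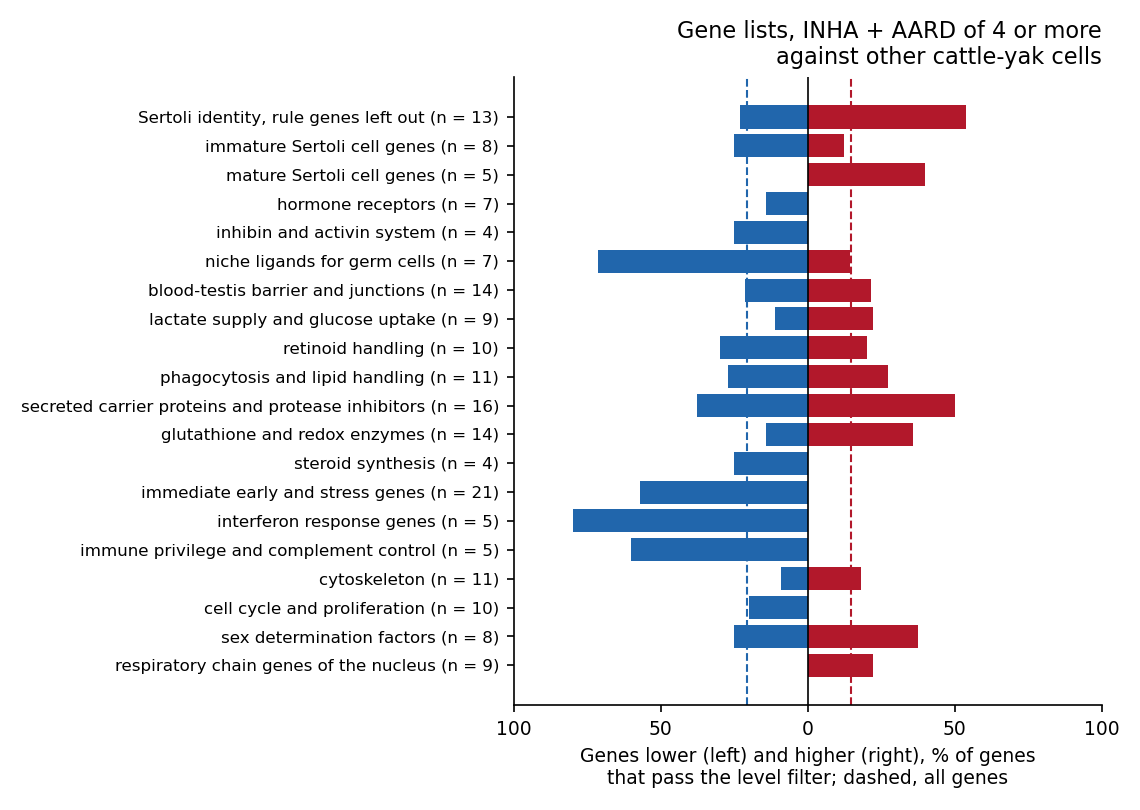
Share of the genes of each list that were at least 2-fold lower (left) or higher (right) in *INHA*/*AARD* cells than in the cattle-yak cells not chosen, among genes that pass the level filter (n). Dashed lines mark the shares over all genes, 20.5% and 14.8%. The study's SC genes are not drawn. The identity list, with 7 of 13 genes, and the carrier list, with 8 of 16, reach furthest to the right. The bar of the sex determination factors, with 3 of 8 genes higher, includes *SOX9*, a gene of the rule.

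The transcription factors and receptors of SC identity were partly present. Of 32 identity genes outside the rule, 20 have a symbol in the annotation and 13 passed the level filter, of which 7 were higher and 3 lower in *INHA*/*AARD* cells, with a median log2 ratio of 1.36 against -0.18 over all genes. The background was 14.8% of genes higher and 20.5% lower. For all 513 cells 7 were higher and 2 lower, where the background was 9.48 and 8.09%. *CITED1*, a co-regulator found in SCs, was at 117 CPM (97.4 to 139) against 1.68 CPM, and *MRO*, the gene of maestro, a male-specific protein of the fetal gonad, at 48.3 CPM against 1.31 CPM. *GATA4*, which switches on SC genes, was at 74.2 CPM (58.9 to 92.4) against 10.1 CPM and 28.2 CPM in stromal-like cells, and *GATA6* at 33.4 CPM against 8.82 CPM. *TF*, the iron carrier transferrin, was at 173 CPM (149 to 199) against 22.1 CPM, *SHBG*, which encodes the androgen-binding protein, at 53.8 CPM against 7.51 CPM, and *NR0B1*, the repressor DAX1, at 39.0 CPM against 14.6 CPM. *EMX2*, *LHX9* and *ITGA6* were lower, *LHX9* at 52.0 CPM against 171 CPM.

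*WT1* and *DMRT1*, both needed to keep SC fate, did not pass the limit against the cells not chosen. *WT1* was at 136 CPM (115 to 160) in *INHA*/*AARD* cells, 108 CPM in the cells not chosen and 199 CPM in EC-like cells. *DMRT1* was at 120 CPM against 89.0 CPM, and germ-like cells had the highest level among named classes, 27.6 CPM. Most of the level in the cells not chosen came from an unnamed cluster with 7 enriched germ cell markers and *DMRT1* among its leading genes, whose 370 cells that were not chosen held 2300 UMIs of *DMRT1* (515 CPM, 495 to 537), while the other 8047 cells held 82 (3.68 CPM, 2.93 to 4.57). That cluster also held 4 of the *INHA*/*AARD* cells. Of its 129 UMIs, 62 lay in the 346 cells of the SC-like cluster, which had 71.8 CPM (55.1 to 92.1), a log2 ratio to the cells not chosen of -0.31 in place of 0.42. After thinning, *WT1* had a UMI in 10.0% of *INHA*/*AARD* cells, 4.86% of stromal-like and 0.791% of T/NK-like cells, and *DMRT1* in 6.58, 0.315 and 0.593%. *FSHR*, the receptor for follicle-stimulating hormone, was at 20 UMIs in the 513 cells, all of them in *INHA*/*AARD* cells (18.6 CPM, 11.3 to 28.7), against 0.224 CPM in the cells not chosen. It had a UMI in 2.82% of the thinned *INHA*/*AARD* cells and in 0 of 1012 thinned T/NK-like cells, which by 3 counts of that total allows up to 0.296% of cells with a UMI at this depth, not of cells that express the gene. *DHH* was counted 4 times in *INHA*/*AARD* cells, *INHBB* 2 times, and *GATA1* and *SOX8* not at all, which by 3 counts over the 366 cells allows levels of up to 2.78 CPM of the latter.

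Hormone receptors were too few to set apart from the background of 14.8% higher and 20.5% lower. None of the 7 that passed was higher (*FSHR* was below the level filter) and 1 was lower. This was *NR3C1*, the glucocorticoid receptor, at 30.6 CPM against 100 CPM (16.2 CPM in the 346 cells of the SC-like cluster). *RARA*, a retinoic acid receptor, was at 184 CPM against 138 CPM. Of the inhibin and activin list, *INHBA*, the activin A subunit, was at 202 CPM against 143 CPM, none of 4 genes was higher, and 1, *TGFBR3*, the betaglycan that binds inhibin, was lower at 67.7 CPM against 248 CPM (44.0 CPM in the 346 cells). Among 6 mature SC genes in the annotation, *TF* and *SHBG* were higher of 5 that passed. Among 8 immature SC genes, all of which passed, *NCAM1* was higher at 178 CPM against 73.7 CPM and *S100A13* and *JUN* were lower. *KRT18*, a keratin of immature SCs, was at 82.6 CPM against 161 CPM.

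Of the ligands that SCs send to germ cells, 1 of 7 was higher and 5 were lower, where the background was 14.8 and 20.5%. *WNT6* was at 114 CPM against 14.7 CPM. *CXCL12*, at 85.4 CPM against 448 CPM, and *JAG1*, at 43.6 CPM against 177 CPM, were lower, as were *IGF1*, *FGF2* and *BMP4*. In the 346 cells of the SC-like cluster *CXCL12* was at 46.3 CPM and *JAG1* at 16.2 CPM, the latter from 14 of its 47 UMIs. *KITLG*, the ligand of spermatogonial KIT, was at 44.5 CPM against 74.9 CPM. *GDNF*, the factor on which spermatogonial stem cells depend, was counted 3 times in 366 cells. In the 513 cells, 1 of 8 was higher and 2 were lower, where the background was 9.48 and 8.09%.

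Of 27 junction genes, 19 have a symbol in the annotation and 14 passed the level filter, so part of the list was not measured. Of the 14, 3 were higher and 3 lower, near the background of 14.8 and 20.5%. Those higher were *ESPN*, the gene of the actin-bundling protein espin of the ectoplasmic specialization, at 110 CPM against 9.83 CPM, *CDH2*, N-cadherin, at 49.2 CPM against 16.5 CPM, and *JAM3* at 46.4 CPM against 9.46 CPM. *CLDN5*, *CTNNB1* and *ITGA6* were lower. *TJP1*, a scaffold of tight junctions, was at 169 CPM against 221 CPM and *GJA1*, connexin 43, at 21.3 CPM in both. Of 11 cytoskeletal genes, *MAP7*, a microtubule-binding protein, was higher at 801 CPM (748 to 856) against 29.0 CPM, as was *ESPN*, and *FSCN1* was lower. *VIM*, the intermediate filament of SCs, was at 988 CPM against 1962 CPM.

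The lists for feeding germ cells and clearing their remains each had 2 or 3 genes higher of about 10, too few to set apart from the background of 14.8%. Of 21 genes of lactate supply and glucose use, 14 have a symbol in the annotation and 9 passed the level filter. In glucose use, 2 of these 9 genes were higher, *TPI1* and *PFKL*, and 1 was lower, *PFKP*. *PKM*, pyruvate kinase, was at 647 CPM against 409 CPM and *HK1* at 271 CPM against 154 CPM. Of 10 retinoid genes, *CRABP2*, a retinoic acid carrier, at 35.3 CPM against 2.36 CPM, and *ALDH1A3*, a retinoic acid-making enzyme, at 38.1 CPM against 5.12 CPM, were higher, and *RBP4*, *CYP26B1* and *RARG* were lower. In lipid handling, *APOA1* was at 2811 CPM against 568 CPM, *FABP5* at 185 CPM against 23.3 CPM and *PROS1*, a bridge to dying cells, at 259 CPM against 106 CPM, whereas *APOE* was at 112 CPM against 651 CPM and *GAS6* and *DOCK1* were also lower. For this list 3 of 11 genes were higher and 3 lower.

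Secreted carriers and protease inhibitors had 8 of 16 genes higher and 6 lower in *INHA*/*AARD* cells, and 6 higher and none lower in all 513 cells. The background was 14.8 and 20.5% for the former and 9.48 and 8.09% for the latter. *TIMP2*, an inhibitor of matrix metalloproteinases, was at 3528 CPM against 503 CPM, *SERPINA5*, the protein C inhibitor, at 697 CPM against 96.3 CPM, *CST3*, cystatin C, at 9045 CPM against 3836 CPM and *IGFBP2* at 143 CPM against 30.5 CPM. The lower members, among them *MGP*, *A2M* and *TIMP3*, are also made by stromal and vessel cells. Glutathione and redox enzymes had 5 of 14 genes higher and 2 lower in *INHA*/*AARD* cells, where the background was the same 14.8 and 20.5%. *GSTM3*, a glutathione transferase, was at 5739 CPM against 1698 CPM, *GPX4*, which removes lipid peroxides, at 200 CPM against 37.9 CPM, and *PRDX1* and *PRDX6*, peroxiredoxins, at 334 and 813 CPM against 81.4 and 206 CPM. *GPX1* was the remaining one. *GPX3* and *CAT* were lower.

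Of 21 immediate early and stress genes, none was higher and 12 were lower in *INHA*/*AARD* cells. In all 513 cells 2 of 21, *KLF6* and *DUSP1*, were lower, near the background of 8.09%. For *INHA*/*AARD* cells the background of this and the following lists was 14.8% higher and 20.5% lower. *JUN* was at 2189 CPM against 6576 CPM, *FOS* at 709 CPM against 2690 CPM and *KLF6* at 287 CPM against 1309 CPM, whereas *HSP90AA1* was at 3175 CPM against 3178 CPM. The *SOX9*-only cells had *JUN* at 10928 CPM and *FOS* at 5150 CPM. Of 5 interferon response genes 4 were lower, among them *IFI6* at 277 CPM against 904 CPM, and of 5 immune privilege genes 3 were lower. Of 10 cell cycle genes none was higher and 2 were lower, near the background, with *TOP2A*, of dividing cells, at 174 CPM against 206 CPM. Within the 346 cells of the SC-like cluster 7 of the 10 were lower, where the background was 30.5%, and *TOP2A* was at 25.5 CPM, with 22 of its 187 UMIs there. Of 4 steroid synthesis genes none was higher and *HSD17B1* was lower, too few to set apart from the background. Among 7 sex determination factors outside the rule *GATA4* and *NR0B1* were higher and *ZFPM2* and *CTNNB1* lower, also too few to set apart.

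The mitochondrial share, which the rule did not use, was high in the *INHA*/*AARD* cells. Their median was 48.2% of UMIs with quartiles of 38.3 and 56.7% and a range of 1.92 to 81.0%. *SOX9*-only cells had a median of 16.8% with quartiles of 14.8 and 19.8%, the cells not chosen a median of 20.1%, and the highest median of another named class was 29.2%, in pericyte-like cells. Of the *INHA*/*AARD* cells 86.3% were at 30% or more, against 2.61% of *SOX9*-only cells and 11.7% of the cells not chosen. A limit of 30%, as the study applied, would keep 50 of the 366 *INHA*/*AARD* cells but 112 of the 115 *SOX9*-only cells.

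**Figure D4:**
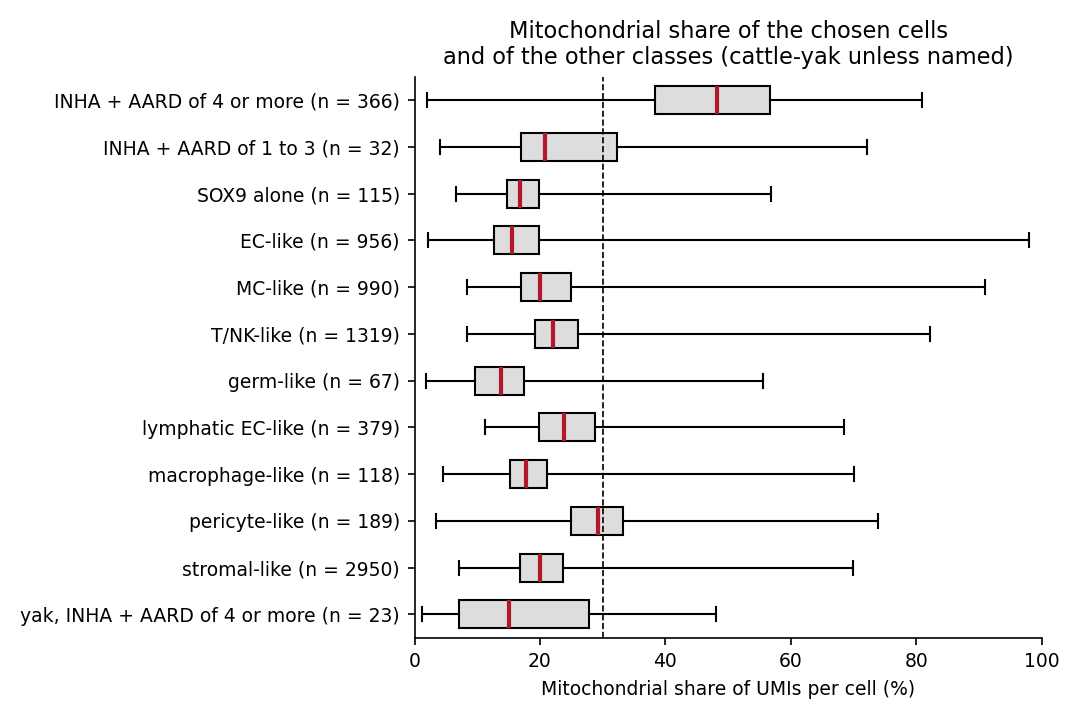
Mitochondrial share of the UMIs of a cell (%), by group, with the median (red), quartiles (box) and lowest and highest cell (whiskers), and a dashed line at 30%. The box of the *INHA*/*AARD* cells of the cattle-yak lies above the line and above the boxes of the 8 other named classes, and that of the *SOX9*-only cells lies below it.

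All 13 mitochondrial mRNAs took a larger share of UMIs in *INHA*/*AARD* cells, 23.3% together against 6.06% in the cells not chosen, and the remaining mitochondrial features took 22.0 and 14.7%. The mRNAs named next were chosen after their values were seen. *COX3*, a subunit of cytochrome c oxidase, took 4.67% of all UMIs in *INHA*/*AARD* cells, 1.17% in *SOX9*-only cells and 1.24% in the cells not chosen. *ATP6*, a subunit of ATP synthase, took 2.69, 0.616 and 0.682%, and *ND1*, of complex I, 1.27, 0.235 and 0.275%. *COX1*, another subunit of cytochrome c oxidase, took 2.48, 0.990 and 1.08%, and *ND6* took 0.0347, 0.0133 and 0.0168%. Among nuclear genes of the respiratory chain, 2 of 9 were higher and none was lower, too few to set apart from the background of 14.8 and 20.5%. Those higher were *ATP5F1A* at 986 CPM against 387 CPM and *COX8A* at 135 CPM against 46.3 CPM. An MC-like cluster of 106 cells also stood high, with a median share of 64.4%.

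The leading genes stayed high on either side of the 30% limit. Below 30%, 50 *INHA*/*AARD* cells with a median of 3140 UMIs were set against 7378 cells that were neither chosen nor in the SC-like cluster, with a median of 3161. At 30% or more, 316 *INHA*/*AARD* cells (median 6031 UMIs) were set against 877 such cells (median 2360). The log2 ratio of ENSBGRG00000007655 was 5.23 below the limit and 5.88 above it, that of *DEFB123* 5.23 and 5.69, of *CRYAB* 4.09 and 4.33, of *OXT* 4.30 and 5.42 and of *TIMP2* 2.08 and 2.68. Of 13 and 14 identity genes 8 were higher on either side. The background was 11% of genes higher and 11.1% lower below the limit and 15.7 and 38.2% above it. Of 21 immediate early and stress genes 7 were lower below the limit and 13 above it, with *JUN* at log2 ratios of -1.01 and -1.42. *FSHR* had no UMI in the 50 cells below the limit, where 3 counts would be 10.6 CPM, and *DMRT1* stood at log2 ratios of 1.25 below the limit and -1.26 above it. Of the 50 cells below the limit, 12 lay outside the SC-like cluster and held 55.6% of the UMIs of that side, against 8 of 316 cells and 4.05% above it. With the 38 and 308 cells within the cluster, the log2 ratios below and above the limit were 6.30 and 5.94 for ENSBGRG00000007655, 6.33 and 5.75 for *DEFB123*, 5.30 and 4.39 for *CRYAB*, 5.16 and 5.50 for *OXT*, 3.10 and 2.72 for *TIMP2* and -0.79 and -1.53 for *JUN*. *DMRT1* turned to -1.65 below the limit, from 3 UMIs, and was at -1.47 above it, where the cells compared with include the *DMRT1*-rich cluster.

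Within the *INHA*/*AARD* cells, some leading genes were higher per UMI of nuclear genes in the cells rich in mitochondrial UMIs. ENSBGRG00000007655 was at 23902 CPM in the 316 cells at 30% or more and 6019 CPM in the 50 below, *DEFB123* at 1886 and 328 CPM, *MAGEA10* at 564 and 81.1 CPM, *CITED1* at 146 and 35.2 CPM and *GATA4* at 93.2 and 21.1 CPM. *INHA* and *AARD*, at 2492 and 842 CPM and at 2143 and 652 CPM, moved the same way but were used in the choice. *CRYAB*, at 1378 (1298 to 1462) and 1427 CPM (1291 to 1573), overlapped in its intervals. Over all genes that passed, 948 of 7931 were higher and 2025 lower on the mitochondria-rich side.

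Within the SC-like cluster 308 cells at 30% or more were set against 38 below, with median depths of 6060 and 2457 UMIs. The differences were smaller there for ENSBGRG00000007655, *DEFB123*, *MAGEA10*, *CITED1* and *GATA4*, whereas that of *CRYAB* was larger. ENSBGRG00000007655 was at 24828 CPM (24472 to 25189) and 12668 CPM (12034 to 13327), *DEFB123* at 1966 and 703 CPM and *MAGEA10* at 588 and 136 CPM. *CITED1*, at 154 CPM (127 to 185) and 84.7 CPM (40.6 to 156), and *GATA4*, at 96.6 and 42.4 CPM (the latter from 5 UMIs), overlapped in their intervals. *CRYAB*, at 1428 CPM (1343 to 1516) and 3296 CPM (2977 to 3641), was lower on the mitochondria-rich side, as were *JUN*, at 1652 and 3864 CPM, and *TIMP1*, another inhibitor of metalloproteinases, at 134 and 1034 CPM. SC genes thus did not move 1 way. The stromal markers *DCN*, at 115 and 271 CPM, *PDGFRA*, at 21.5 and 102 CPM, and *COL1A2*, at 235 and 466 CPM, were also lower on the mitochondria-rich side. Over all genes that passed, 913 of 7246 were higher and 1119 lower on the mitochondria-rich side.

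Depth also split the *INHA*/*AARD* cells. In the 183 cells at or above the median of 5930 UMIs, ENSBGRG00000007655 was at 16797 CPM and in the 183 below it at 27115 CPM, and *DEFB123* at 1258 and 2194 CPM, with median mitochondrial shares of 48.4 and 48.0%. The limit of 4 UMIs asks for a higher level of *INHA* and *AARD* in a shallow cell, and *INHA* was at 1774 and 2993 CPM and *AARD* at 1502 and 2570 CPM, so genes that go with them are set higher on the shallower side by the choice and nothing is read from their difference. *TF* was at 167 CPM (140 to 197) and 192 CPM (141 to 254). *UCHL1* was at 444 and 48.0 CPM, but 333 of its 367 UMIs on the deeper side lay in 14 cells outside the SC-like cluster. Within the cluster, 169 deeper and 177 shallower cells had ENSBGRG00000007655 at 21321 and 27947 CPM and *DEFB123* at 1617 and 2252 CPM, and *SYNE2*, which encodes a nesprin of the nuclear envelope, at 613 CPM (553 to 678) and 191 CPM (140 to 255) was among the genes with the largest difference. When all 513 cells were split at their median of 5242 UMIs, 88 of the 115 *SOX9*-only cells fell on the lower side, and *DCN*, *PDGFRA* and *IGF1* led there.

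Choosing cells by 2 of the 3 genes left the third to be measured apart from the choice. Cells with a UMI of *CYP11A1* or at least 5 UMIs of *WFDC2* were left out on both sides. In the 366 cells chosen on *INHA* and *AARD*, *SOX9* was at 601 CPM (556 to 649) against 86.7 CPM (83.1 to 90.3) in the others, a log2 ratio of 2.78. In 374 cells chosen on *AARD* and *SOX9*, *INHA* was at 1191 CPM (1134 to 1249) against 40.5 CPM, a log2 ratio of 4.84. In 404 cells chosen on *INHA* and *SOX9*, *AARD* was at 1010 CPM (959 to 1062) against 27.2 CPM, a log2 ratio of 5.16. All 3 genes were thus higher when they were not used, *SOX9* by the least.

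A supplementary list of the study names 29 genes under functions enriched among the SC markers of its yak library. Its longer marker list was not used here. The study assigned the SC cluster of that library by *SOX9* and *WFDC2*. All 29 are in the annotation, and 26 remain without the genes of the rule. They were compared between the *INHA*/*AARD* cells and the 38 *WFDC2*-rich cells of the cattle-yak, which together hold 241827 UMIs. A total of 16 of the 26 were higher in *INHA*/*AARD* cells, 8 were higher in the *WFDC2*-rich cells and 2 lay between, where the background was 24.1 and 20.8% of all genes. No UMI of *DEFB123* or ENSBGRG00000015690 was found in *WFDC2*-rich cells. Against 3 counts over that group, 12.4 CPM, the *INHA*/*AARD* cells were at least 119-fold and 59.3-fold higher. *CRYAB* was at 1391 CPM (1321 to 1463) against 244 CPM from 59 UMIs, *MAP7* at 801 CPM against 120 CPM, *ABHD11* at 686 CPM against 33.1 CPM and *BLVRA*, biliverdin reductase, at 521 CPM against 211 CPM. *PHGDH*, of serine synthesis, was at 300 CPM against 182 CPM.

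The 8 genes on the *WFDC2* side included *PAX8*, a transcription factor of duct epithelia, at 18.6 CPM in *INHA*/*AARD* cells and 707 CPM from 171 UMIs in *WFDC2*-rich cells. *CKB*, creatine kinase B, was at 70.5 and 467 CPM, ENSBGRG00000003729 at 0.928 and 505 CPM, ENSBGRG00000011563 at 41.8 and 612 CPM, *MX1* at 44.5 CPM (25.5 CPM in the 346 cells of the SC-like cluster) and 145 CPM and *TST* at 36.2 and 91.0 CPM. ENSBGRG00000000541 was at 383 and 1530 CPM, and ENSBGRG00000010385 at 35.3 and 554 CPM. *SOX9* did not separate both groups, at 601 and 641 CPM. Of the 8 genes, *CKB* and ENSBGRG00000010385 were higher still in MC-like cells, at 536 and 754 CPM, and *MX1* in EC-like cells, at 409 CPM. *TF*, an SC marker that is not on this list, was at 1704 CPM from 412 UMIs in *WFDC2*-rich cells beside 173 CPM in *INHA*/*AARD* cells, and *GATA4* at 29.0 CPM from 7 UMIs beside 74.2 CPM.

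**Figure D5:**
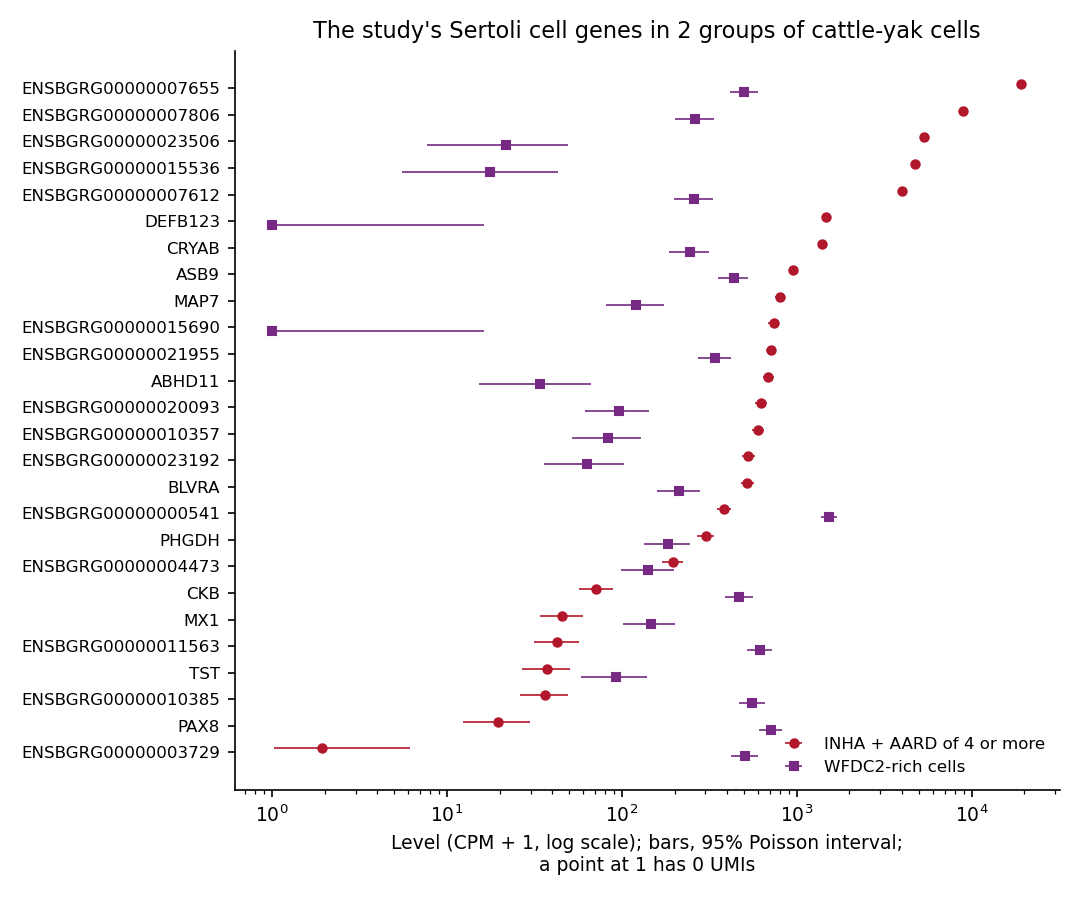
Level (CPM + 1, log axis) of 26 genes that the study lists under functions of SC markers in the 366 *INHA*/*AARD* cells and the 38 *WFDC2*-rich cells of the cattle-yak, with exact Poisson 95% intervals; a point at 1 has 0 UMIs. The upper genes are high in *INHA*/*AARD* cells, whereas 8 genes, among them *PAX8* and ENSBGRG00000000541, are higher in *WFDC2*-rich cells.

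Of the named classes, stromal-like and EC-like cells had the profile most like the *INHA*/*AARD* cells, with Pearson's r of log2(CPM + 1) over 26922 genes of 0.904 and 0.903, and MC-like cells also had 0.903. For *SOX9*-only cells r was 0.940 with stromal-like and 0.925 with EC-like cells. These values describe profiles that share 1 library, and genes are not replicates.

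The yak library held few such cells. The same rule found 138 of 11991 cells (1.15%, 0.968 to 1.36%), of which 103 were *SOX9*-only, 12 had 1 to 3 UMIs of *INHA* and *AARD*, and 23 (0.192%, 0.122 to 0.288%) had 4 or more. The 103 *SOX9*-only cells had a median of 36687 UMIs, and their leading genes included *CCDC38*, *CATSPERE* and *NME8*, genes of cilia and sperm tails. None of these genes led the clusters that held the *SOX9*-only cells of the cattle-yak. Shares of cells depend on how the tissue was digested and on the cells called, and the 2 libraries cannot be told apart from their animals.

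Several leading genes of the cattle-yak were also counted in the 23 *INHA*/*AARD* cells of the yak, which held 59246 UMIs of nuclear genes. Their median depth was 3299 UMIs, against 5930 in the cattle-yak, and the limit of 4 UMIs asks for a higher level in a shallower cell. The part of depth in the differences given next was not tested. ENSBGRG00000007655 was at 10077 CPM (9284 to 10918) beside 19193 CPM in the cattle-yak, ENSBGRG00000007806 at 9942 CPM beside 8970 CPM, *DEFB123* at 3258 CPM (2814 to 3751) beside 1475 CPM and ENSBGRG00000015690 at 3410 CPM beside 736 CPM. *MAGEA10* was at 709 CPM from 42 UMIs beside 437 CPM, and *CRYAB* at 523 CPM (356 to 743) from 31 UMIs beside 1391 CPM. Others were counted less. *F10* was counted 1 time (16.9 CPM beside 127 CPM), and *ARHGAP36* and ENSBGRG00000012061 each 4 times (67.5 CPM, 18.4 to 173, beside 205 and 185 CPM). The interval of *ARHGAP36* lay below that of the cattle-yak, 179 to 234 CPM, and that of ENSBGRG00000012061 overlapped with it, 160 to 212 CPM. Both were at under 1 CPM in the other yak cells, at 0.906 and 0.702 CPM. *OXT*, *TF* and *GATA4* were each counted 2 times, which is 33.8 CPM (4.09 to 122), and *FSHR* 1 time, which is 16.9 CPM (0.427 to 94.0). For *OXT* and *TF* the interval lay below those of the cattle-yak, 260 to 326 and 149 to 199 CPM, and for *GATA4* and *FSHR* it overlapped with them. The median mitochondrial share was 15.1% (quartiles 7.13 and 27.8%), and 5 of 23 cells were at 30% or more, against 316 of 366 in the cattle-yak. In the yak library as a whole 7.31% of cells were at 30% or more, against 14.7% in the cattle-yak library.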

How the data were processed

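The authors deposited UMI counts, unnormalized and in whole numbers, of 26961 genes in every called cell. The file headers name Cell Ranger 5.0.0 and the submitters' processing notes Cell Ranger 2.1.1, and the study's methods name another version for the yak library. The study's methods name the BosGru assembly for the yak library, and none is named for the cattle-yak. Each library is 1 group and depths are given above. The cells, gene lists and comparisons were chosen with earlier results of these data known.

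Counts were summed over cells and scaled to CPM without 37 mitochondrial features and 2 rRNA features. Log2 ratios had 1 CPM added, genes needed a mean of 10 CPM, and a log2 ratio of 1 was the limit. Genes named were those of the lists, the study's SC genes, the 20 largest (UMI in 20% of cells) and 10 smallest ratios and the 5 largest of each split, and others are marked. Not every one is printed. Clusters came from scanpy 1.11.5 with Leiden from igraph 0.11.9 (2000 variable genes, 30 components, 15 neighbours, resolution 1) under Python 3.11.15. A name needed 3 enriched markers, more than any other list had, and no other list with more of the 10 leading genes. Intervals were exact Poisson or binomial (scipy 1.17.1). The ratio rule was also run on simulated data as a check, with no result reported here. The values of 1 listed gene are not reported here.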

Additional observations from a re-analysis of the deposited data

How the results depend on the processing

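Counts of genes depended on the choice of cells and on scaling. Of 459 log2 ratios, of 27 named genes under 17 settings, 404 kept their direction and their side of a log2 ratio of 1, 35 came to pass it, 17 no longer passed it and 3 changed sign, all of *FSHR* at 0 UMIs. The 513 cells became 186 below a mitochondrial share of 30% and 165 under the study's quality limits. Their mitochondrial share, 38.5% of summed UMIs, was 35.1% with a sum of 3, 43.2% with a sum of 6, 39.2% without Scrublet doublets and 18.3% under either quality limit. With cells chosen after seeing the data it was 45.3% for *INHA* and *AARD* of 4 or more, 42.9% without *SOX9*-only cells and 48.4% within the SC-like cluster.

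The 789 genes higher became 402 below 30% mitochondrial, 380 under the study's limits, 326 with CPM over all UMIs (which moved the median over all genes from -0.01 to -0.40), 525 with a pseudocount of 10, 369 and 1189 with a mean CPM of 50 and 2, 196 at a log2 ratio of 2, and 1209, 1423 and, within the mitochondria-rich band, 1321 for the choices made after seeing the data. The 673 genes lower became 1357 with a sum of 6, 288 below 30%, 1155 with CPM over all UMIs, 1535 with cells weighted equally, 346 with a pseudocount of 10, 246 and 1228 with a mean CPM of 50 and 2, 72 at a log2 ratio of 2, and 1675, 1294 and 2376 for the later choices, and 3217 within the band. The 7 identity genes higher became 4 below 30% and 1 at a mean CPM of 50. The cause was not tested, except that fewer genes pass a stricter filter. *FSHR* went from a log2 ratio of 3.35 to -0.06 below 30% and -0.08 under the study's limits, where no chosen cell held it, so that the added 1 CPM sets the ratio and its sign gives no direction.

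The 13 study genes higher in all chosen cells than in *WFDC2*-rich cells, the 358 chosen cells in the SC-like cluster, and the choice by 2 genes kept their side or stayed within 1.5 times under the alternatives run for them. The 3472 genes past the limit in the split by mitochondrial share became 2032 within the *INHA*/*AARD* cells of the SC-like cluster, a choice made after seeing the data. No paired analysis was possible because each group is 1 library. Depth limits genes under about 3 UMIs, 2.78 CPM in *INHA*/*AARD* cells and 50.6 CPM in the 23 yak cells.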
